A study of Mus musculus with 18 samples.

Results

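Cytochrome c oxidase, complex IV of the respiratory chain, passes electrons from cytochrome c to oxygen, and several of its nuclear-encoded subunits exist in more than one form. The genes described here are 8 that belong to such subunits: Cox4i1 and Cox4i2, Cox6a1 and Cox6a2, Cox7a1, Cox7a2 and the related Cox7a2l, and Cox8a. They were chosen by name, and all 8 were measured among the 15491 genes with a probe set that names 1 gene, through 14 of 25951 such probe sets. Each gene is given by its brightest probe set over all arrays, and the other probe sets of Cox6a1, Cox7a2, Cox7a2l and Cox8a served as a check. Levels of different probe sets are not compared with each other, because probes differ in how they bind.

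Levels were measured with Affymetrix arrays in wild-type primary hepatocytes isolated from C57BL/6J mice. The cells carried an adenovirus for PGC-1a1, the full-length form of the coactivator PGC-1alpha, for PGC-1a4, a shorter splice form, or an empty vector. Every virus, the control included, also expressed GFP from its own reading frame. Infection lasted 48 hours, and the cells then received TNFalpha, an inflammatory cytokine, at 2 ng/mL for 2 hours or its PBS vehicle, which gave 6 groups of 3 arrays, named here by virus and by TNF or PBS. The labels do not say whether the 3 arrays of one group stand for separate cultures or mice. The p-values then reflect the scatter of these arrays alone, and that scatter may be technical. The number of arrays limits the precision. These are forced levels of a coactivator in cultured cells, and no source used here names the promoter that drives it.

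The catalytic core of the oxidase is encoded in mitochondrial DNA, and the small nuclear-encoded subunits around it tune its activity and stability. Cox4i1, Cox6a1, Cox7a2 and Cox8a encode the forms that liver and most other tissues use. Cox6a2 and Cox7a1 encode the forms of heart, skeletal muscle and, for Cox7a1, brown fat. Cox4i2 is the form of lung and of cells short of oxygen, and Cox7a2l encodes a relative of the 7a subunits that links complex IV to complex III in respiratory supercomplexes. C57BL/6J mice are known for carrying a shortened form of the Cox7a2l protein, which these arrays do not resolve. PGC-1alpha raises nuclear genes of the respiratory chain by coactivating ERRalpha, NRF1 and GABP, whose sites are found in many of their promoters.

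Promoters of 5 of the 8 genes (Cox6a1, Cox7a1, Cox7a2, Cox7a2l and Cox8a) were in the RefSeq table of GRCm38.p6 used here. The 250 bases before the start of Cox6a1 and of Cox7a1 are printed, the first because it held letters of the factors above and the second because Cox7a1 had the largest differences of the 8 genes. Both run 5′ to 3′ along the gene's strand, Cox6a1 from chr5:115348959-115349208 on the minus strand and Cox7a1 from chr7:30183921-30184170 on the plus strand, and capitals mark matches.
Cox6a1: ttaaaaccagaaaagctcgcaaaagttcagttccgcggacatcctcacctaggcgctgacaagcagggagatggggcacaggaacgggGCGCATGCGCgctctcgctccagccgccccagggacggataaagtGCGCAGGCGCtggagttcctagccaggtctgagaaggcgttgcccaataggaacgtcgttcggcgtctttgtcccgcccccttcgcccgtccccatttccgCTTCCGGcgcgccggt
Cox7a1: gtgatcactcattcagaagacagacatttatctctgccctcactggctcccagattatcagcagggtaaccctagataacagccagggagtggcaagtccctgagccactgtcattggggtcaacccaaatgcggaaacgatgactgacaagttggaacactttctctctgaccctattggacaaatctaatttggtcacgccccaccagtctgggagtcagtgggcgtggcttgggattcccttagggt
The capitals of Cox6a1 are matches to the NRF1 consensus from base -162 to -153 and from -117 to -108, counted from the gene's start, and the GABP letters CCGGAAG on the opposite strand from -16 to -10. The NRF1 consensus stood in 3.74% and GABP letters in 6.91% of the 32851 promoters searched on both strands. The 250 bases of Cox7a1, Cox7a2, Cox7a2l and Cox8a held no match to these or to the ERR core AAGGTCA (4.08% of promoters), the YY1 letters AANATGGC (3.91%), the MEF2 consensus (3.2%) or the hypoxia core ACGTG (16.6%). That says only that these letters are not in these windows.

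Arrays of one group correlated at 0.990 to 0.996 over genes. The TNF arrays had a wider distribution than the PBS arrays, with a lower quartile of 6.30 to 6.40 against 6.55 to 6.66 and an upper quartile of 9.80 to 10.03 against 9.43 to 9.61, so the array set and the treatment cannot be told apart in any TNF difference. Centring each array on its median moved the median TNF difference of all genes from between -0.04 and 0.02 to between 0.18 and 0.21. Hepatocyte markers averaged 12.84 to 13.60 over 6 measured genes, but single ones moved far. In vector cells TNF went with lower Hnf4a (11.77 to 8.99) and Fgb (14.37 to 11.31) and higher Cyp2e1 (8.87 to 13.22), all called and named after their values were seen. With PGC-1a1 under PBS 0 of the 6 were higher and 3 lower against vector, and 0 and 4 against PGC-1a4. Of all genes 7.88% were called higher and 4.11% lower against vector, and 10.3% and 7.08% against PGC-1a4. The part of these shifts in the results was not tested. The Ppargc1a probe set, for the gene of both PGC-1alpha forms, read 7.21 ± 0.17 (SD) in vector cells, 6.93 ± 0.07 in PGC-1a1 cells and 7.11 ± 0.24 in PGC-1a4 cells under PBS, and neither form passed against vector under PBS or TNF. No source used here places it inside or outside the inserted sequence, and the labels are therefore not checked by it. Of all called genes, 65.7% were higher with PGC-1a1 against vector under PBS, and 55.2%, 71.8% and 53.8% under quantile normalization, median centring and cyclic loess, and for PGC-1a4 against vector 37.5% under PBS became 69.8% after centring and 63.1% under TNF became 51.2% under loess. Centring also moved the TNF share from 48.7% to 62.9% in vector cells, 49.6% to 66.7% in PGC-1a1 cells and 53.3% to 66.2% in PGC-1a4 cells, and loess the TNF response from 74.2% to 55.5% for PGC-1a4 against vector and from 36.2% to 52% for PGC-1a1 against PGC-1a4. Esrra, which encodes ERRalpha, was 0.97 ± 0.12 higher with PGC-1a1 than with vector under PBS (adjusted p = 1.43e-05).

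**Figure D1:**
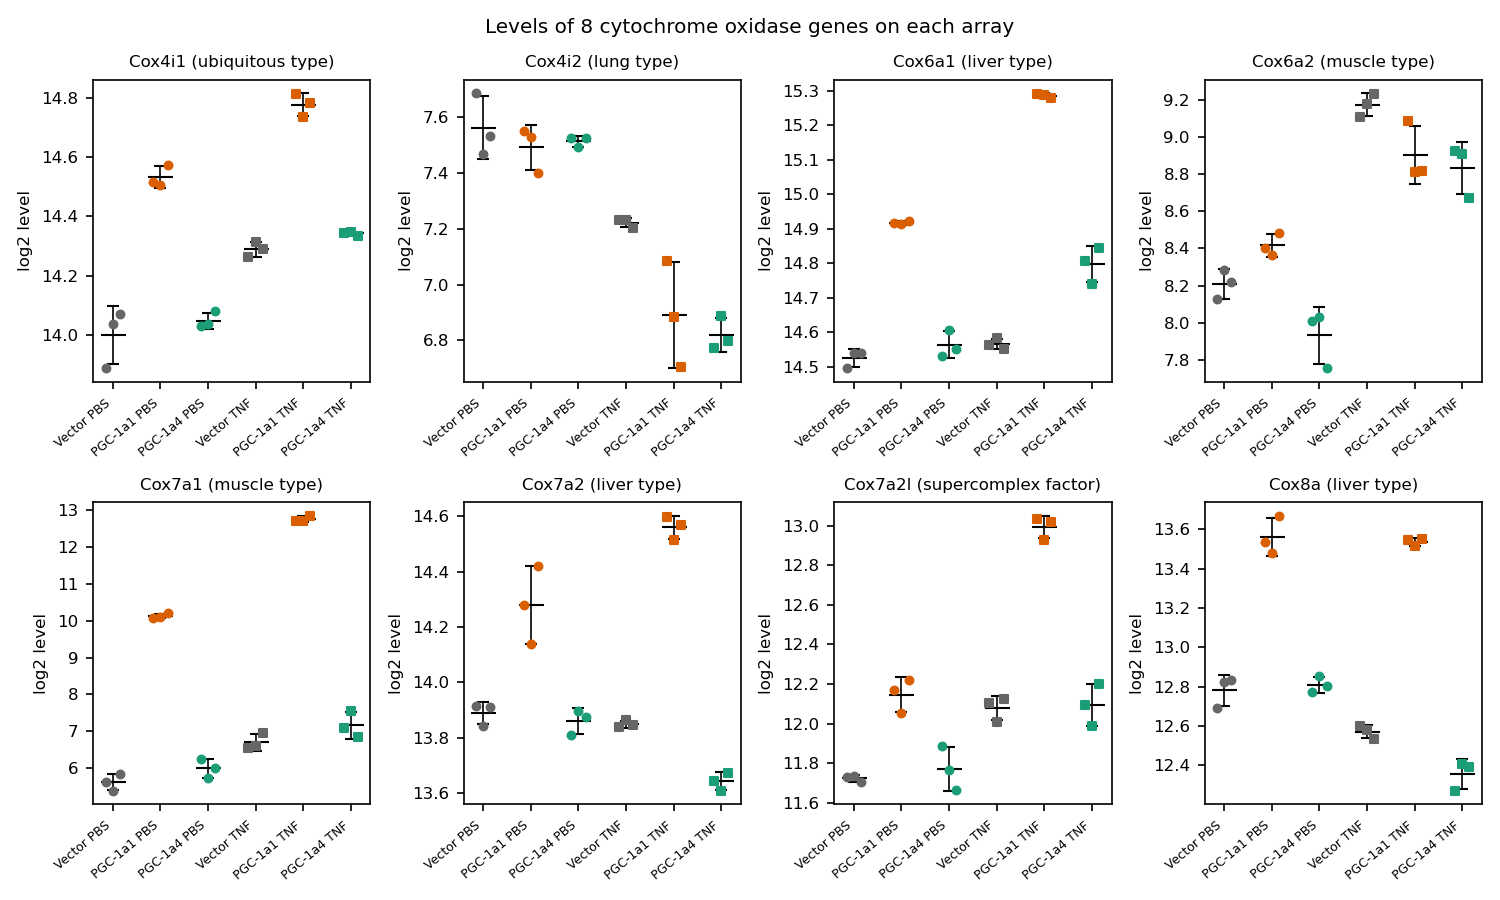
Log2 level of each of the 8 genes on the 18 arrays (points), with the group mean and SD (bars, n = 3), each panel on its own axis. Cox7a1 stood at 10.09 to 10.21 and 12.70 to 12.85 on the PGC-1a1 arrays and at 7.55 or below on all others, while Cox4i2 was lowest and Cox6a2 highest in the TNF arrays.

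With PGC-1a1 the liver-type and common forms were modestly higher and the muscle-type Cox7a1 steeply higher, while Cox4i2 and Cox6a2 did not pass. Under PBS, 6 of the 8 genes were higher with PGC-1a1 than with vector and 0 were lower, where 7.88% of all genes tested were called higher and 4.11% lower. The median difference of the 8 genes was 0.41, beside -0.01 over all genes. Differences are log2 ± SE with n = 3 arrays per group, and adjusted p-values are those of limma over all 15491 genes. In RNA from whole cultures, a change in the number of cells of a type and in RNA per cell cannot be told apart.

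Cox7a1, the heart, muscle and brown fat form of subunit 7a, read 5.63, 5.39 and 5.83 on the vector arrays under PBS, 6.26, 5.74 and 6.00 with PGC-1a4, and 10.09, 10.11 and 10.21 with PGC-1a1. The vector and PGC-1a4 arrays overlapped and lay under the lower quartile of their arrays, whereas the PGC-1a1 arrays lay above the upper quartile. The difference of PGC-1a1 from vector was 4.52 ± 0.17, or 22.9-fold (adjusted p = 6.47e-12). Against PGC-1a4 it was 4.13 ± 0.17, or 17.5-fold (adjusted p = 2.29e-11). RMA compresses large folds, and a value under the lower quartile of an array is close to its background, so the size of the fold is uncertain. PGC-1a4 itself differed from vector by 0.38 ± 0.17, which did not pass (adjusted p = 0.409).

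Cox7a2, the liver form of the same subunit, read 13.91, 13.84 and 13.91 with vector, 13.81, 13.90 and 13.88 with PGC-1a4, and 14.28, 14.14 and 14.42 with PGC-1a1 under PBS. All PGC-1a1 arrays were above all others, and the difference from vector was 0.39 ± 0.08, or 1.31-fold (adjusted p = 0.00173). Cox7a2l read 11.73, 11.74 and 11.70 with vector, 11.89, 11.76 and 11.67 with PGC-1a4, and 12.17, 12.05 and 12.22 with PGC-1a1. It was thus 0.42 ± 0.08 higher with PGC-1a1 than with vector, with no overlap (adjusted p = 0.00164).

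Cox8a encodes the liver form of subunit 8, and its muscle counterpart Cox8b was not analysed here. It read 12.69, 12.82 and 12.83 with vector, 12.77, 12.86 and 12.80 with PGC-1a4, and 13.53, 13.48 and 13.67 with PGC-1a1. The difference of PGC-1a1 from vector, 0.78 ± 0.07 or 1.72-fold (adjusted p = 1.11e-06), was the largest among the liver-type forms as listed here. Cox6a1, the liver form of subunit 6a, read 14.50, 14.54 and 14.54 with vector, 14.53, 14.61 and 14.55 with PGC-1a4, and 14.92, 14.91 and 14.92 with PGC-1a1. That gene was 0.39 ± 0.06 higher with PGC-1a1 than with vector (adjusted p = 3.33e-04). Cox4i1, the form of subunit 4 used in most tissues, read 13.89, 14.04 and 14.07 with vector, 14.03, 14.04 and 14.08 with PGC-1a4, and 14.52, 14.50 and 14.57 with PGC-1a1. Its difference was 0.53 ± 0.07, or 1.44-fold (adjusted p = 3.24e-05).

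Cox4i2 and Cox6a2 stood apart from their partners under PBS. Cox4i2, the lung form, read 7.69, 7.47 and 7.53 with vector, 7.52, 7.49 and 7.53 with PGC-1a4, and 7.55, 7.53 and 7.40 with PGC-1a1. The 3 groups overlapped, below the array median, and PGC-1a1 differed from vector by -0.07 ± 0.09 (adjusted p = 0.785; 95% interval -0.26 to 0.12). Cox6a2, the muscle form, read 8.13, 8.28 and 8.22 with vector, 8.40, 8.37 and 8.48 with PGC-1a1, and 8.01, 8.03 and 7.76 with PGC-1a4. These groups did not overlap, but neither the difference of PGC-1a1 from vector (0.21 ± 0.10, adjusted p = 0.240) nor that of PGC-1a4 from vector (-0.28 ± 0.10, adjusted p = 0.293) passed, while PGC-1a1 was 0.48 ± 0.10 above PGC-1a4 (adjusted p = 0.00201). For Cox6a2 the groups thus ordered as PGC-1a1, vector and PGC-1a4, and neighbours in that order did not pass.

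The shorter form was near vector under PBS. Of the 8 genes 0 passed for PGC-1a4 against vector in limma, 2 had an unadjusted p under 0.05 (Cox6a2 and Cox7a1), and 0.207% of all genes were called, 0.0775% higher and 0.129% lower. The differences ran from -0.28 to 0.38 with a median of 0.03, beside -0.02 over all genes. The intervals still allowed differences of Cox7a1 up to 0.74 and of Cox6a2 down to -0.49. In PGC-1a1 against PGC-1a4, 7 of the 8 genes passed as higher with PGC-1a1 and 0 as lower, where 10.3% of all genes were called higher and 7.08% lower, and Cox4i2 did not pass (-0.02 ± 0.09). This comparison and that with vector share the PGC-1a1 arrays.

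**Figure D2:**
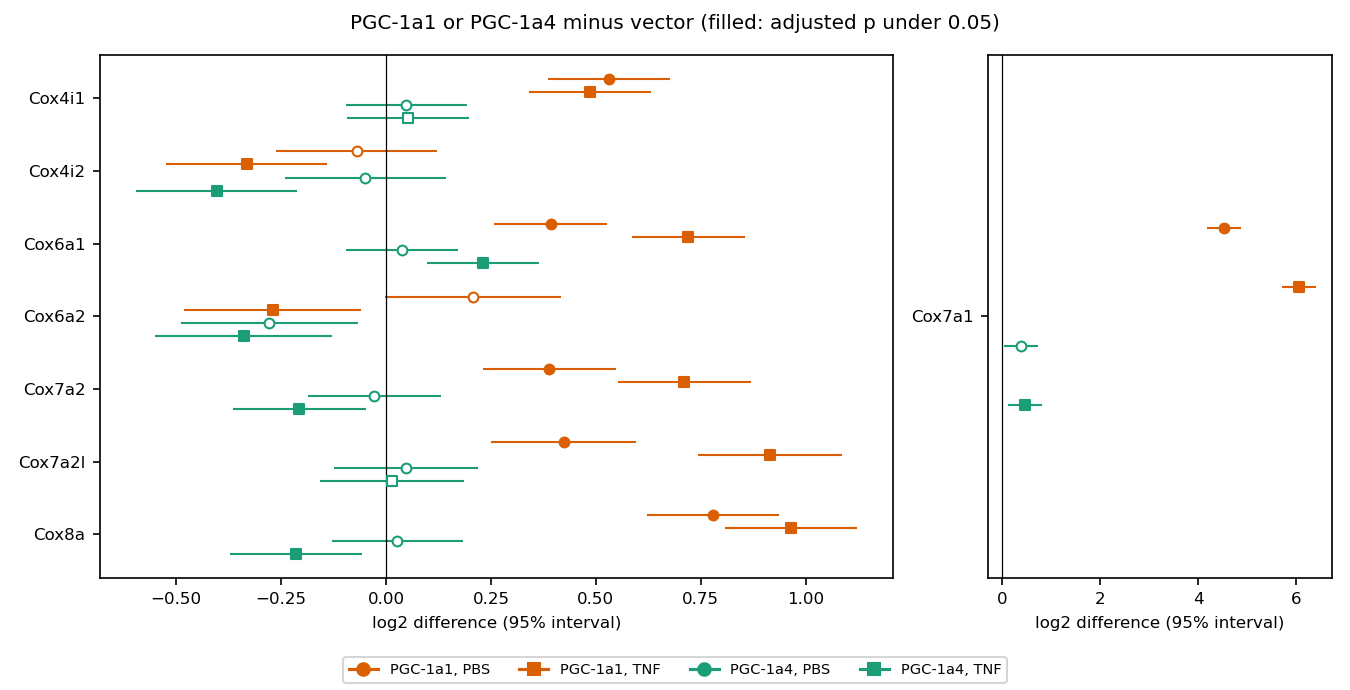
Log2 difference of PGC-1a1 (orange) and PGC-1a4 (green) from vector with its 95% interval, under PBS (circles) and TNF (squares), with Cox7a1 on its own axis; filled symbols have an adjusted p under 0.05. The orange points of Cox4i1, Cox6a1, Cox7a2, Cox7a2l and Cox8a lie between 0.39 and 0.96, and those of Cox7a1 at 4.52 and 6.06.

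With TNF, Cox4i1, Cox6a1, Cox7a1, Cox7a2, Cox7a2l and Cox8a were again higher with PGC-1a1 than with vector, and the lung and muscle forms of subunits 4 and 6a were lower. Of the 8 genes 6 were higher with PGC-1a1 than with vector and 2 lower, where 20.8% of all genes were called higher and 20.5% lower, 41.3% in all. The median of the 8 differences was 0.72, beside -0.03 over all genes.

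Cox7a1 read 6.54, 6.60 and 6.96 with vector, 7.09, 7.55 and 6.84 with PGC-1a4, and 12.70, 12.72 and 12.85 with PGC-1a1 under TNF. PGC-1a1 exceeded vector by 6.06 ± 0.17, or 66.7-fold (adjusted p = 9.34e-14), and PGC-1a4 by 5.60 ± 0.17 (adjusted p = 3.56e-13). Every PGC-1a1 array stood far from the others. Cox7a2 read 13.84, 13.86 and 13.85 with vector, 13.65, 13.61 and 13.67 with PGC-1a4, and 14.60, 14.51 and 14.57 with PGC-1a1, a difference of 0.71 ± 0.08 from vector (adjusted p = 5.01e-07). Cox7a2l read 12.10, 12.01 and 12.13 with vector, 12.09, 11.99 and 12.20 with PGC-1a4, and 13.03, 12.93 and 13.02 with PGC-1a1, a difference of 0.91 ± 0.08 (adjusted p = 5.48e-08). The difference of PGC-1a4 from vector in Cox7a2l was 0.02 ± 0.08 (95% interval -0.16 to 0.19), and the other probe sets gave -0.15 and -0.17, which did not pass.

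Cox8a under TNF read 12.60, 12.58 and 12.53 with vector, 12.27, 12.41 and 12.39 with PGC-1a4, and 13.55, 13.51 and 13.55 with PGC-1a1, which was 0.96 ± 0.07 above vector (adjusted p = 8.46e-09). Cox6a1 read 14.56, 14.58 and 14.55 with vector, 14.81, 14.74 and 14.84 with PGC-1a4, and 15.29, 15.29 and 15.28 with PGC-1a1, which was 0.72 ± 0.06 above vector (adjusted p = 4.79e-08). For both genes the 3 viruses did not overlap, with PGC-1a4 on opposite sides of vector. The Cox6a1 values are close to the highest value of the TNF arrays, 15.95 to 15.99. Cox4i1 read 14.26, 14.31 and 14.29 with vector, 14.35, 14.35 and 14.34 with PGC-1a4, and 14.81, 14.73 and 14.78 with PGC-1a1, which was 0.49 ± 0.07 above vector (adjusted p = 1.54e-05).

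Cox4i2 under TNF read 7.23, 7.23 and 7.20 with vector, 7.08, 6.89 and 6.70 with PGC-1a1, and 6.77, 6.89 and 6.80 with PGC-1a4. Both coactivator forms lay below vector on every array, PGC-1a1 by -0.33 ± 0.09 (adjusted p = 0.00685) and PGC-1a4 by -0.40 ± 0.09 (adjusted p = 0.00231), and they overlapped with each other. Without PGC-1a1 array 3 the first difference was -0.24 and did not pass (adjusted p = 0.0514), nor did it with only the arrays compared (adjusted p = 0.0534). Cox6a2 read 9.11, 9.18 and 9.23 with vector, 9.08, 8.81 and 8.82 with PGC-1a1, and 8.92, 8.91 and 8.67 with PGC-1a4. PGC-1a1 was lower than vector by -0.27 ± 0.10 (adjusted p = 0.0387) and PGC-1a4 by -0.34 ± 0.10 (adjusted p = 0.0143). The first of these was lost without vector array 2 or 3 or PGC-1a1 array 2 or 3 (-0.27 to -0.22), with only the arrays compared (adjusted p = 0.0810) and after median centring (-0.23, adjusted p = 0.0779), and the second without vector array 3 (-0.31) or PGC-1a4 array 3 (-0.26).

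PGC-1a4 against vector under TNF gave small differences in both directions, with 2 of the 8 genes higher and 4 lower, where 21.1% of all genes were called higher and 12.3% lower, 33.5% in all. The median was -0.10, beside 0.01 over all genes. Cox6a1 was 0.23 ± 0.06 higher (adjusted p = 0.00919) and Cox7a1 0.46 ± 0.17 higher (adjusted p = 0.0403), with arrays that overlapped for Cox7a1. Cox4i2 and Cox6a2 were lower, as given above, and so were Cox7a2 (-0.21 ± 0.08, adjusted p = 0.0432) and Cox8a (-0.21 ± 0.07, adjusted p = 0.0343). By the mean of its probe sets the Cox8a difference was -0.023 and not called (adjusted p = 0.845), and that of Cox7a2 was 0.068. The calls of Cox7a1, Cox7a2 and Cox8a were close to the threshold, and most fits without 1 array lost them. That of Cox7a1 was lost without vector array 1 (0.38), vector array 2 (0.41), PGC-1a4 array 1 (0.50) or PGC-1a4 array 2 (0.27), that of Cox7a2 without any 1 of the 6 arrays (-0.22 to -0.19), and that of Cox8a without any 1 except PGC-1a4 array 2 (-0.23 to -0.17). In PGC-1a1 against PGC-1a4 under TNF, 6 genes were higher and 0 lower, where 15.2% of all genes were called higher and 21.3% lower, 36.5% in all, and Cox4i2 and Cox6a2 both differed by 0.07 ± 0.09 and 0.07 ± 0.10, which did not pass.

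Far more genes were called between TNF and PBS arrays than between viruses, and the array set and the treatment cannot be told apart in these calls. In vector cells 34.7% of all genes were called higher and 36.6% lower, 71.3% together. In PGC-1a1 cells these were 34.6%, 35% and 69.6%, and in PGC-1a4 cells 37.4%, 32.8% and 70.2%. Of the 8 genes 4 were higher and 2 lower in vector cells, 6 and 1 in PGC-1a1 cells, and 5 and 3 in PGC-1a4 cells, so a call of a single gene says less here than in the virus comparisons. The medians of the 8 differences were 0.17, 0.33 and 0.26, beside -0.04, -0.04 and 0.02 over all genes.

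The muscle forms Cox6a2 and Cox7a1 were higher with TNF in all 3 viruses, and kept that direction and call when the arrays were quantile-normalized, centred on their median or scaled by cyclic loess. Cox6a2 rose by 0.96 ± 0.10 with vector (adjusted p = 1.32e-07), 0.49 ± 0.10 with PGC-1a1 (adjusted p = 3.31e-04) and 0.90 ± 0.10 with PGC-1a4 (adjusted p = 3.20e-07), and no TNF array overlapped a PBS array of its virus. Cox7a1 rose by 1.08 ± 0.17 with vector (adjusted p = 1.56e-05), 2.62 ± 0.17 with PGC-1a1 (adjusted p = 3.32e-10) and 1.16 ± 0.17 with PGC-1a4 (adjusted p = 7.43e-06). The lung form Cox4i2 was lower with TNF in all 3 viruses, by -0.34 ± 0.09 with vector (adjusted p = 0.00284), -0.60 ± 0.09 with PGC-1a1 (adjusted p = 1.41e-05) and -0.70 ± 0.09 with PGC-1a4 (adjusted p = 2.50e-06). The call of Cox4i2 with vector was lost under each other scaling (-0.15, -0.13 and -0.06), while those with PGC-1a1 and PGC-1a4 held at -0.31 to -0.51.

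The brighter genes depended on the scaling. Cox4i1 was 0.29 ± 0.07 higher with TNF in vector cells, 0.24 ± 0.07 in PGC-1a1 cells and 0.29 ± 0.07 in PGC-1a4 cells (adjusted p = 0.00111, 0.00437 and 0.00100), but under cyclic loess the 3 differences were -0.090, -0.082 and -0.064. Cox7a2l was 0.35 ± 0.08 higher in vector cells, 0.85 ± 0.08 in PGC-1a1 cells and 0.32 ± 0.08 in PGC-1a4 cells (adjusted p = 8.50e-04, 6.16e-08 and 0.00193), and under quantile normalization the values of vector and PGC-1a4 turned to -0.092 and -0.099, whereas PGC-1a1 stayed at 0.50. Among the TNF rises of Cox4i1, Cox6a1, Cox7a2 and Cox7a2l, only that of Cox7a2l with PGC-1a1 passed under all 3 other scalings. Cox6a1 differed by 0.04 ± 0.06 with vector (adjusted p = 0.579), and was 0.37 ± 0.06 higher with PGC-1a1 (adjusted p = 5.83e-05) and 0.23 ± 0.06 higher with PGC-1a4 (adjusted p = 0.00335), with 0.075 and -0.082 under cyclic loess. Cox7a2 differed by -0.04 ± 0.08 with vector (adjusted p = 0.649), was 0.28 ± 0.08 higher with PGC-1a1 (adjusted p = 0.00311; -0.066 under cyclic loess) and -0.22 ± 0.08 lower with PGC-1a4 (adjusted p = 0.0157; -0.032 and not called after median centring). Cox8a was -0.21 ± 0.07 lower with vector (adjusted p = 0.0180) and -0.45 ± 0.07 lower with PGC-1a4 (adjusted p = 3.50e-05), and differed by -0.02 ± 0.07 with PGC-1a1 (adjusted p = 0.781; 0.20 after median centring and -0.42 under cyclic loess, both called). Its difference with vector was 0.0014 after median centring and did not pass without vector PBS array 3 (-0.18) or vector TNF array 3 (-0.19), while that with PGC-1a4 passed under each scaling.

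**Figure D3:**
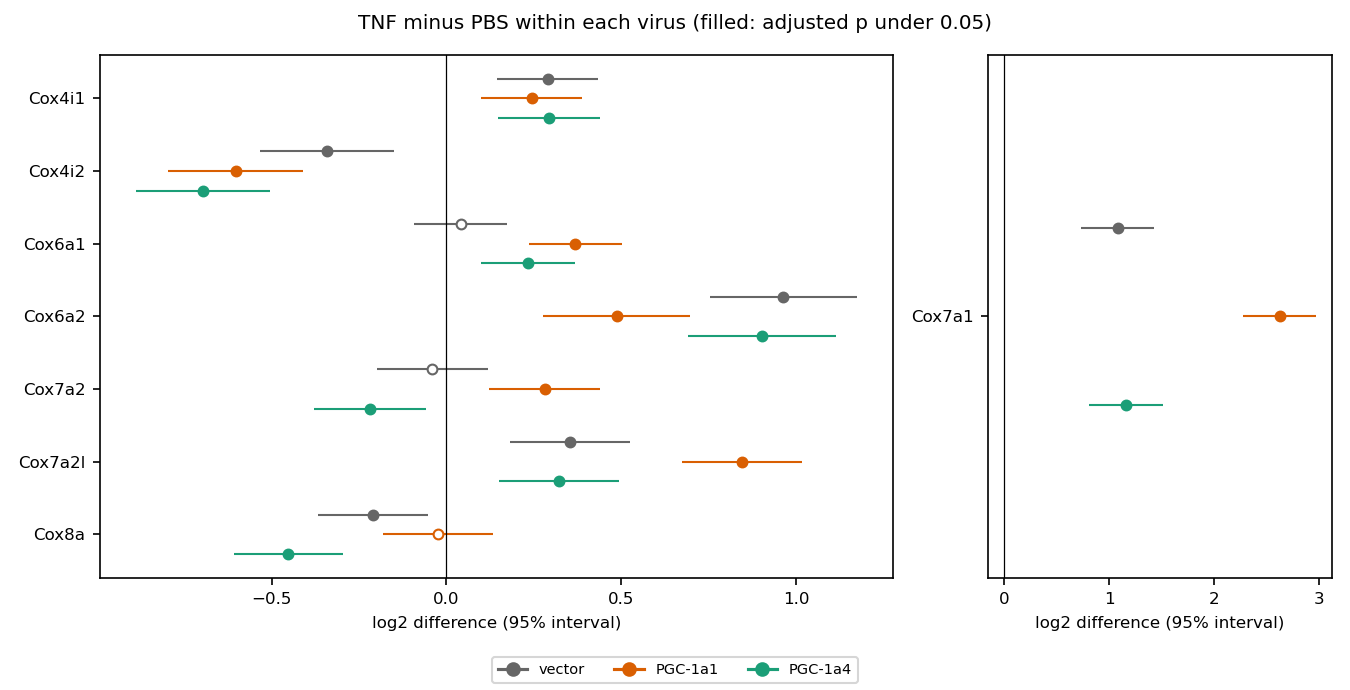
Log2 difference of TNF from PBS within vector (grey), PGC-1a1 (orange) and PGC-1a4 (green), with its 95% interval, for the 8 genes, with Cox7a1 on its own axis and adjusted p under 0.05 filled. Cox7a1 with PGC-1a1, at 2.62, lies clear of the 1.08 and 1.16 of the other viruses, and Cox6a2 with PGC-1a1, at 0.49, below its 0.96 and 0.90.

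Whether a virus changed the TNF difference was tested as such. Against vector, the TNF difference with PGC-1a1 was higher for 4 of the 8 genes and lower for 1, where 13.4% of all genes were called higher and 12% lower, 25.5% together. The median over the 8 was 0.25, beside -0.01 over all genes. Cox7a1 differed by 1.54 ± 0.23 (adjusted p = 1.01e-04), Cox7a2l by 0.49 ± 0.12 (adjusted p = 0.00392), Cox6a1 by 0.33 ± 0.09 (adjusted p = 0.0113), Cox7a2 by 0.32 ± 0.11 (adjusted p = 0.0341) and Cox6a2 by -0.48 ± 0.14 (adjusted p = 0.0185). The muscle forms Cox7a1 and Cox6a2 thus went opposite ways in this comparison. For Cox7a1 the vector arrays under PBS lay under the lower quartile, close to background, so the size of its excess is uncertain. Cox7a2 lost its call without most of the single arrays (0.25 to 0.33). For PGC-1a4 against vector 0 of the 8 genes passed in limma, 3 had an unadjusted p under 0.05 (Cox4i2, Cox6a1 and Cox8a), and 16% of all genes were called, 11.9% higher and 4.12% lower.

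PGC-1a1 against PGC-1a4, which shares the PGC-1a1 arrays with the comparison above, gave a higher TNF difference with PGC-1a1 for 4 genes and a lower one for 1, where 7.18% of all genes were called higher and 12.6% lower, 19.8% together. Cox7a1 differed by 1.46 ± 0.23 (adjusted p = 2.65e-04), Cox7a2l by 0.52 ± 0.12 (adjusted p = 0.00343), Cox7a2 by 0.50 ± 0.11 (adjusted p = 0.00277), Cox8a by 0.43 ± 0.11 (adjusted p = 0.00770) and Cox6a2 by -0.42 ± 0.14 (adjusted p = 0.0466). The call of Cox6a2 was lost without most single arrays (-0.45 to -0.33) and under quantile normalization, median centring and cyclic loess (-0.39, -0.37 and -0.30). That of Cox7a2 was lost when its probe sets were averaged (0.24), and its second probe set gave -0.03 (limma, adjusted p = 0.913 over probe sets). The excess of Cox7a2 thus rests on the brightest probe set. For Cox7a1 the PGC-1a4 arrays under PBS also lay under the lower quartile, close to background, so the size of its excess is uncertain.

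Changes of partner forms were then compared within a family, by permuting virus labels within a treatment or treatment labels within a virus in an exact two-sided test of the per-array difference between partners. There were 16 such tests, the smallest p possible was 0.005 for a virus comparison and 0.00025 for TNF against PBS, with Benjamini-Hochberg adjustment across these 16. Cox7a1 rose more than Cox7a2 with PGC-1a1 against vector, by 4.74 as the mean over both treatments (exact p = 0.005, adjusted 0.008), with 4.13 under PBS and 5.35 under TNF. With PGC-1a4 Cox7a1 went up against Cox7a2 by 0.54 (exact p = 0.015, adjusted 0.0218), and on the PBS arrays alone, by 0.41, the groups overlapped. Cox7a1 read close to background in both groups under PBS. Under TNF, PGC-1a4 differed from vector by -0.21 on the brightest Cox7a2 probe set and by 0.34 on the second. The size of this change thus depends on the probe set. Between TNF and PBS arrays Cox7a1 went up against Cox7a2 by 1.61 (exact p = 0.00025, adjusted 0.00133), where the array set and the treatment cannot be told apart.

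In subunits 4 and 6a the tissue form fell behind its common partner with PGC-1a1. Between TNF and PBS arrays the 2 families moved in opposite directions, and the array set and the treatment cannot be told apart there. Cox4i2 changed against Cox4i1 by -0.71 with PGC-1a1 (exact p = 0.005, adjusted 0.008) and by -0.82 with TNF (exact p = 0.00025, adjusted 0.00133). The TNF change depended on the scaling. In vector cells it was -0.63, but under cyclic loess the TNF differences there were -0.064 for Cox4i2 and -0.090 for Cox4i1. With PGC-1a4 Cox4i2 changed relative to Cox4i1 by -0.28 against vector (exact p = 0.04, adjusted 0.0457), from -0.10 under PBS and -0.46 under TNF. Cox6a2 changed against Cox6a1 by -0.59 with PGC-1a1 and by -0.44 with PGC-1a4 (both exact p = 0.005, adjusted 0.008), and in both cases the TNF arrays gave more, -0.99 and -0.57, than the PBS arrays, -0.18 and -0.32. With TNF, Cox6a2 went up against Cox6a1 by 0.57 (exact p = 0.00075, adjusted 0.003), with 0.92 in vector cells, 0.67 with PGC-1a4 and 0.12 with PGC-1a1, where the arrays overlapped. Cox7a2l moved with Cox7a2 to within 0.12 with PGC-1a1 and 0.15 with PGC-1a4 (exact p = 0.025 and 0.04, adjusted 0.0333 and 0.0457), and these values turned to -0.067 and -0.059 when the probe sets of a gene were averaged. With TNF, Cox7a2l went up against Cox7a2 by 0.50 (exact p = 0.00025, adjusted 0.00133).

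**Figure D4:**
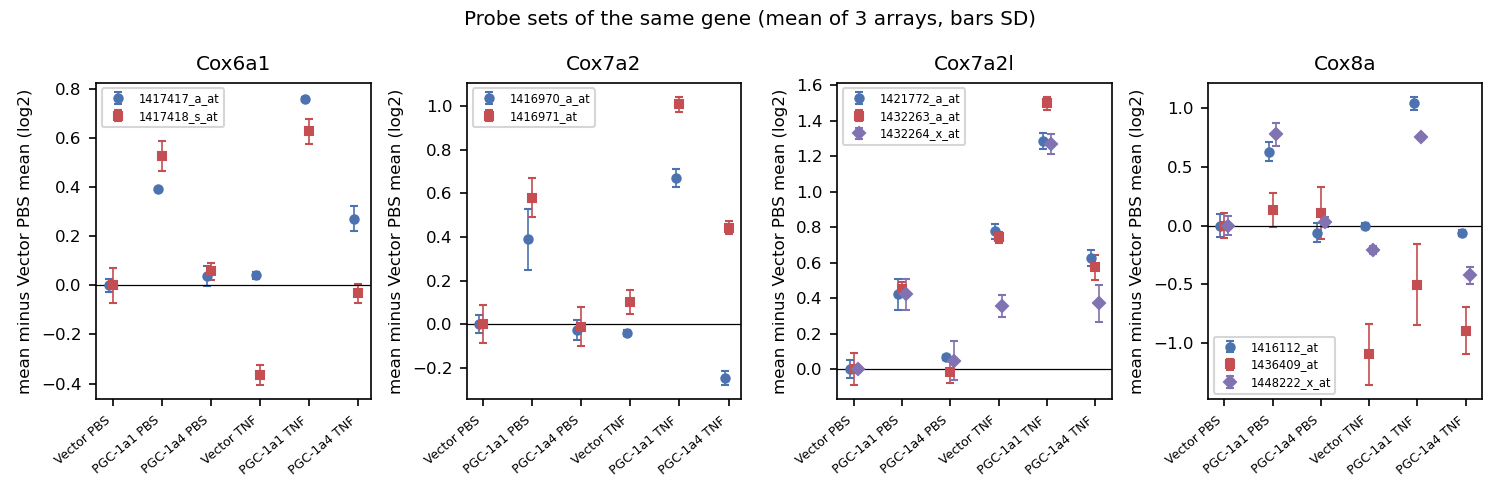
Mean log2 level of each probe set of Cox6a1, Cox7a2, Cox7a2l and Cox8a in the 6 groups, less its own vector PBS mean (bars SD, n = 3). The probe sets of a gene lie together for PGC-1a1 under PBS, apart from the dimmest of Cox8a, and spread in the TNF groups, most for Cox8a and for Cox7a2 with PGC-1a4.

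The other probe sets carried the PGC-1a1 differences and not all of the TNF ones. Here p-values are adjusted over the 25951 probe sets. PGC-1a1 was above vector on the second probe set of Cox6a1 by 0.53 under PBS and 0.99 under TNF, of Cox7a2 by 0.58 and 0.91, of Cox8a by 0.63 and 1.05, and on the remaining pair of Cox7a2l by 0.42 and 0.45 under PBS and 0.51 and 0.76 under TNF, all past the threshold in limma. The dimmest probe set of Cox8a, at 6.85 ± 0.11 (SD) with vector under PBS, gave 0.14 (adjusted p = 0.788) and 0.60 (adjusted p = 0.00838). Cox7a2 with PGC-1a4 under TNF went the other way on its second probe set, 0.34 higher than vector (adjusted p = 0.00349) where the brightest gave -0.21 (adjusted p = 0.0575 over probe sets), so its direction depends on the probe set. For Cox8a in the same comparison the other probe sets gave -0.06 (adjusted p = 0.635) and 0.20 (adjusted p = 0.399), and neither passed.

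Several TNF differences split between probe sets. The second Cox6a1 probe set was -0.37 lower with TNF in vector cells (adjusted p = 2.47e-04), where the brightest gave 0.04. Cox7a2 with PGC-1a4 was 0.45 higher with TNF on the second probe set (adjusted p = 7.18e-05) and -0.22 lower on the brightest. Cox8a with vector and with PGC-1a4 showed -0.00 on the second probe set (adjusted p = 0.969 and 0.996), where the brightest was lower, and 0.41 with PGC-1a1 (adjusted p = 1.76e-04), where the brightest gave -0.02. The dimmest Cox8a probe set was lower with TNF in all 3 viruses, by -0.64 to -1.10. For Cox7a2l both other probe sets were higher with TNF in vector cells, by 0.78 and 0.74, and the PGC-1a1 excess in the TNF difference was 0.09 and 0.31 (adjusted p = 0.615 and 0.0502), so that call rests on the brightest probe set. The excess of Cox6a1 passed on its second probe set too (0.47, adjusted p = 0.00302). For Cox8a, not called on the brightest, the second probe set gave an excess of 0.42 (limma, adjusted p = 0.0117). Its dimmest gave 0.46 (adjusted p = 0.186). With PGC-1a4 the TNF difference of Cox7a2 exceeded that of vector by 0.35 on the second probe set (adjusted p = 0.0469), where the brightest gave -0.18.

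Other subunits of the oxidase were higher with PGC-1a1 too. Of 14 other core subunits listed, 8 were measured, and with PGC-1a1 against vector 5 were higher and 0 lower under PBS and again 5 and 0 under TNF, with medians of 0.71 and 0.92, beside -0.01 and -0.03 over all genes. Of all genes 7.88% were called higher and 4.11% lower under PBS, and 20.8% and 20.5% under TNF. Cox5a, which faces the matrix, was 1.24 ± 0.07 higher under PBS (adjusted p = 1.80e-09), Ndufa4, a late-assigned subunit of the complex, 0.84 ± 0.09 (adjusted p = 2.07e-06), and Cox6b1, which helps join the dimer, 0.75 ± 0.07 (adjusted p = 1.16e-06). Cox5b, the zinc-binding subunit, was 0.72 ± 0.08 higher and Cox6c 0.69 ± 0.07. The testis forms did not pass, with 0.17 ± 0.21 for Cox6b2, -0.18 ± 0.12 for Cox7b2 and -0.18 ± 0.16 for Cox8c under PBS. Cox7b, Cox7c and Cox8b were not analysed here. With PGC-1a4 against vector 0 of the 8 passed under PBS, where 0.207% of all genes were called. Under TNF 3 were higher, among them Cox6b2 (0.95 ± 0.21, adjusted p = 0.00170), and 0 lower. Of all genes 21.1% were called higher and 12.3% lower there.

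Assembly factors, which insert copper and heme and stabilise the subunits, varied more. Of 25 measured (30 listed), 12 were higher and 2 lower with PGC-1a1 under PBS (median 0.23), and 20 and 1 under TNF (median 0.82). Over all genes 7.88% were higher and 4.11% lower under PBS (median -0.01), and 20.8% and 20.5% under TNF (median -0.03). Cox11, which places copper at the CuB site, was 1.41 ± 0.09 higher under PBS and 2.52 ± 0.09 under TNF. Cmc2 was 1.27 ± 0.09 and 2.64 ± 0.09 higher, and Cox17, a copper chaperone, 0.92 ± 0.11 and 1.25 ± 0.11. Coa3, which binds the newly made Cox1 protein, was -0.42 ± 0.09 lower under PBS and 0.44 ± 0.09 higher under TNF. Cox18, needed for export of a part of Cox2, was -0.35 ± 0.09 lower under both treatments. With PGC-1a4 0 of 25 passed under PBS, where 0.207% of all genes were called. Under TNF 14 were higher and 1 lower (median 0.28), where 21.1% of all genes were higher and 12.3% lower (median 0.01).

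**Figure D5:**
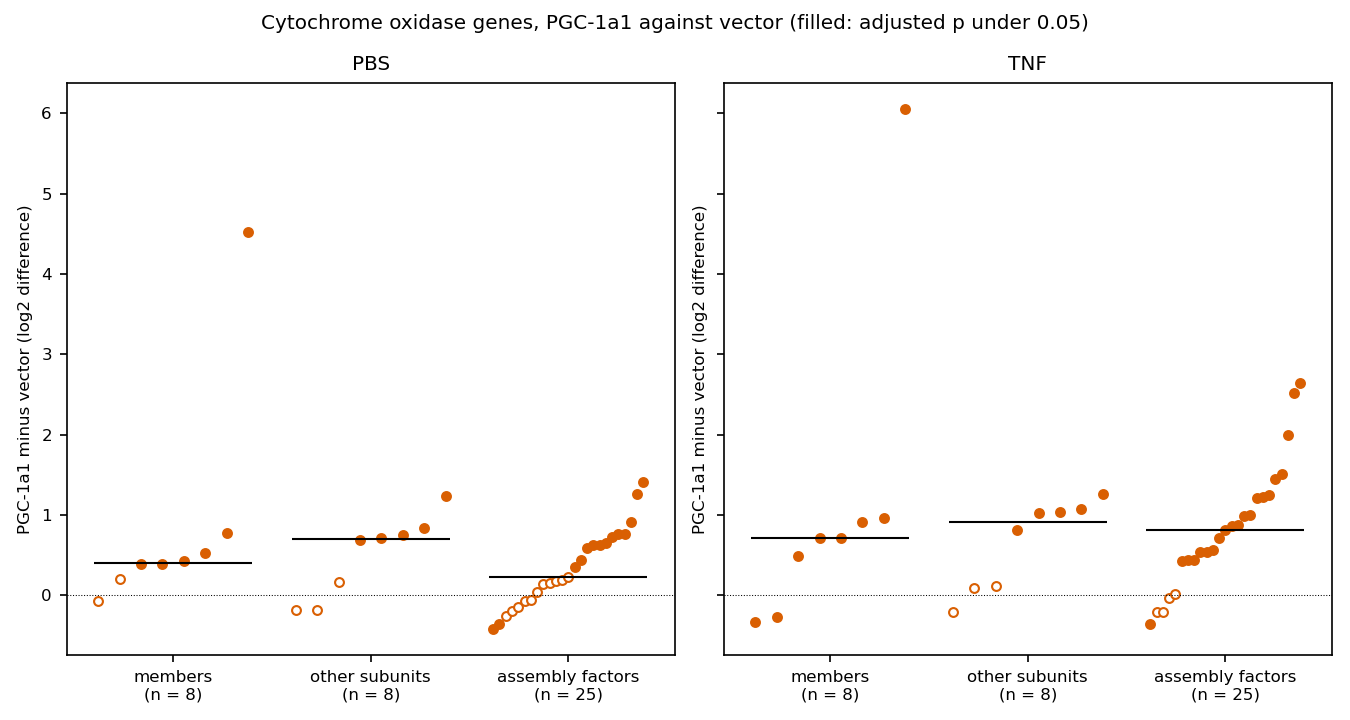
Log2 difference of PGC-1a1 from vector for the 8 genes, for 8 other core subunits and for 25 assembly factors, under PBS and TNF, each point a gene, the bar the median and filled points an adjusted p under 0.05. Cox7a1, at 4.52 and 6.06, lies above every other point, the next being Cox11 at 1.41 under PBS and Cmc2 at 2.64 under TNF.

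Regulators known for these genes were measured for 16 of 19 listed, and with PGC-1a1 3 were higher and 1 lower under PBS, and 4 and 6 under TNF. Of all genes 7.88% and 4.11% were called under PBS and 20.8% and 20.5% under TNF, so the higher count under TNF is near the background. Tfam, which packs and transcribes mitochondrial DNA, was 0.73 ± 0.09 higher under PBS (adjusted p = 2.32e-05), and Esrrg, a relative of ERRalpha, 0.36 ± 0.10 (adjusted p = 0.0264). Esrra rose by 0.97 ± 0.12 under PBS and by 2.21 ± 0.12 under TNF. Nrf1 gave -0.27 ± 0.11 (adjusted p = 0.124) under PBS. Rbpj, known to bind the Cox4i2 promoter in the hypoxia response, was -0.57 ± 0.15 lower under PBS (adjusted p = 0.0141) and -0.40 ± 0.15 lower under TNF (adjusted p = 0.0345). Hif1a was -0.96 ± 0.09 lower with PGC-1a1 under TNF (adjusted p = 6.25e-08). With PGC-1a4 under TNF, where Cox4i2 was lower too, Hif1a differed from vector by -0.06 ± 0.09 (adjusted p = 0.631), and with TNF in vector cells Hif1a was 0.29 ± 0.09 higher (adjusted p = 0.00622). The part of Hif1a in the Cox4i2 differences was not tested, and Hif1a and Nrf1 are named after their values were seen.

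Other muscle genes were set beside Cox7a1 and Cox6a2. Of 16 muscle markers measured (17 listed), 0 passed in either direction with PGC-1a1 under PBS, and 1 was higher and 5 lower under TNF, the one being Actn2 (0.97). Of all genes 7.88% were called higher and 4.11% lower under PBS, and 20.8% and 20.5% under TNF. Beside shares this low under PBS, 0 of 16 says little. Their summed level, given as the mean over the list, was 6.40 to 6.46 with PGC-1a1 and 6.29 to 6.47 with vector under PBS, and 6.24 to 6.35 and 6.42 to 6.64 under TNF, and 9 of the 16 lay under the lower quartile of the PGC-1a1 arrays under PBS. Muscle creatine kinase, Ckm, read 8.08 ± 0.09 (SD) with PGC-1a1 and 7.98 ± 0.19 with vector under PBS. Of 6 brown adipocyte markers 1 was higher with PGC-1a1 under PBS, Cidea by 0.77, and Ucp1, the uncoupling protein of brown fat, was -1.09 lower under TNF, where 0 of the 6 were higher and 2 lower. The shares of all genes in these comparisons are those given for the muscle markers. The part of these markers in the Cox7a1 difference was not tested. Ckm, Actn2, Cidea and Ucp1 are named after their values were seen. With TNF against PBS in vector cells, where Cox6a2 rose, 6 of the 16 muscle markers were higher and 4 lower, near the 34.7% and 36.6% of all genes, and their part in the result was not tested. For Cox4i2, the list of stellate and smooth muscle markers averaged 7.41 to 7.48 with PGC-1a1 and 7.83 to 8.05 with vector under TNF, with 0 of 7 genes higher and 4 lower, and its part in the Cox4i2 difference was not tested. In the same comparison 0 of 6 endothelial markers were higher and 3 lower, and of 2 lung epithelium markers 0 passed. Of all genes 20.5% were lower in that comparison.

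The genes most like each member over the arrays, by Pearson r over 18 arrays after each treatment's mean was taken off, are given as a description, since arrays share their groups. For Cox7a1 they were Atp5g1 (0.994), Ndufa5 (0.994), Fastkd1 (0.992), Nudt19 (0.992) and Bcar3 (0.991), the first a subunit of ATP synthase and the second of complex I. Cox4i1 was closest to Atp5c1, Hccs and Cox5a, Cox6a1 to Ptdss2, Cs and Cox11, Cox8a to Mrps23, Mdh1 and Atpaf2, Cox7a2 to Acot5, Irs2 and Rb1cc1, and Cox7a2l to Trak2, Acacb and Isca1. Cs and Mdh1 encode enzymes of the citric acid cycle, and Mrps23 a protein of the mitochondrial ribosome. The neighbours of Cox6a2 were Ddit3 (0.902), a stress-response factor, Nop56 (0.885) and Nol8 (0.880), and those of Cox4i2 were Zfp563 (0.906), Ankrd2 (0.893) and Potegl (0.889). Among the 8 genes, Cox7a1 correlated with Cox4i1, Cox6a1, Cox7a2, Cox7a2l and Cox8a at 0.93 to 0.97, while Cox6a2 and Cox6a1 were at 0.00 and Cox4i2 and Cox4i1 at -0.35.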

How the data were processed

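Total RNA of 18 hepatocyte samples was hybridised to Affymetrix mouse arrays. The deposited values are log2 levels. Per the submitters' processing notes they come from RMA (affy), a method that subtracts background, equalises quantiles and summarises probes. Neither a version nor the set of arrays normalized jointly is given in the sources used here. Of 33246 table lines 1 was incomplete and dropped, so a gene with no earlier probe set was not analysed here. GEO's platform annotation, its symbols updated through RefSeq (GRCm38.p6), gave 25951 probe sets 1 gene, 686 several and 6608 none.

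With limma (3.58.1) in R (4.3.3), a model of group means took in all 18 arrays and all 15491 genes, each by its brightest probe set, with 12 residual and 5.08 prior degrees of freedom. Tests were two-sided, with Benjamini-Hochberg adjustment across every gene of the comparison and a threshold of 0.05. Partner genes were compared by exact permutation. Named are the 8 genes, from each list the 3 highest and 3 lowest called differences in PGC-1a1 against vector under PBS at most, the tissue-type subunits, and the nearest genes by correlation. The genes and lists were chosen with earlier results of these data known. On simulated data for PGC-1a1 against vector under PBS (15491 genes, independent noise), 67, 67 and 66 genes were changed by 0.5, 1 and 2. The fit recovered 56.7%, 94% and 100% of these, with 5 false among 172 calls. The real comparison called 1857 genes, so its recovery and error rates may differ.

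Alternatives were other moderation, array weights, blocking on the replicate number, a filter on dim genes, other scalings, the mean of probe sets, only the arrays compared, an adjusted p of 0.01, a minimum fold of 1.5, single treatments or viruses, and leaving out each array. Python 3.11.15 and matplotlib 3.10.9 drew the figures.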

Additional observations from a re-analysis of the deposited data

Results flagged for a closer look

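For 5 of the 8 genes the TNF difference was not the same with PGC-1a1 as with vector, by limma's test of that difference. It was larger with PGC-1a1 by 1.54 for Cox7a1, 0.49 for Cox7a2l, 0.33 for Cox6a1 and 0.32 for Cox7a2, and smaller for Cox6a2, by -0.48. The size for Cox7a1 is uncertain, because vector cells under PBS read close to background. The Cox7a2l excess did not pass on either other probe set (0.09 and 0.31), and Cox7a2 lost its call without most single arrays.

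For 5 genes it was not the same with PGC-1a1 as with PGC-1a4, by the same test. It was larger with PGC-1a1 by 1.46 for Cox7a1, 0.52 for Cox7a2l, 0.50 for Cox7a2 and 0.43 for Cox8a, and smaller for Cox6a2, by -0.42. For Cox7a1 the PGC-1a4 cells under PBS also read close to background. The second probe set of Cox7a2 gave -0.03 and did not pass. The call of Cox6a2 was lost under each other scaling and without most single arrays. Groups of 3 arrays were not tested for single arrays that stand apart.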

How the results depend on the processing

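The direction and call of each PGC-1a1 difference from vector under PBS, for Cox4i1, Cox6a1, Cox7a1, Cox7a2, Cox7a2l and Cox8a, held under each alternative run except a minimum fold of 1.5. With that minimum, the genes called were 2 for PGC-1a1 against vector under PBS, 2 against PGC-1a4 under PBS, 5 against vector under TNF, 0 for PGC-1a4 against vector under TNF, 2, 3 and 3 for TNF against PBS with vector, PGC-1a1 and PGC-1a4, and 1 for each TNF response of PGC-1a1. At an adjusted p of 0.01 they were 2 for PGC-1a4 against vector under TNF and 2 for the PGC-1a1 response against vector. With only the arrays compared, 2 were called for PGC-1a4 against vector under TNF. Array weights gave 1 for PGC-1a4 against vector under PBS. The PGC-1a4 response against vector gave 1 with array weights, 2 with cyclic loess, 2 with trended and robust moderation and 1 with a filter on dim genes. Cyclic loess gave 5 for TNF against PBS with PGC-1a4. Without 1 array, the count was 3 to 4 for PGC-1a4 against vector under TNF, 6 to 8 for PGC-1a1 against vector under TNF, and 0 to 1 for the PGC-1a4 response.

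Single genes that turned over were Cox7a2 for PGC-1a4 against vector under TNF (0.068 by the mean of probe sets), and otherwise TNF against PBS. With vector these were Cox7a2l (-0.092, quantile; -0.078, loess), Cox8a (0.0014, centred), Cox4i1 (-0.090, loess) and Cox6a1 (-0.31, loess; -0.16, mean of probe sets). With PGC-1a1 they were Cox8a (0.20, centred), Cox4i1 (-0.082, loess) and Cox7a2 (-0.066, loess). With PGC-1a4 they were Cox7a2l (-0.099, quantile; -0.17, loess), Cox4i1 (-0.064, loess), Cox6a1 (-0.082, loess) and Cox7a2 (0.12, mean of probe sets). Over all single genes and other settings, 943 values stayed on their side of the threshold, 84 lost a call, 14 gained one and 15 turned over with the value called in one setting or both. Without 1 array these were 674, 44, 2 and 0. Of the 943 and the 674, 21 and 25 changed sign with neither value called. The causes were not tested.

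Between partners, Cox4i2 against Cox4i1 with PGC-1a4 lost its call under quantile scaling (-0.21) and loess (-0.22). By the mean of probe sets it was not called either, but its value of -0.28 was unchanged. Each of these genes has 1 probe set, so only the adjustment across the tests moved there. Without 1 array the pair lost the call in 3 of 12 fits (-0.31 to -0.22 over the 12). It gave -0.46 on TNF arrays alone, and -0.99 for TNF with PGC-1a4 alone. Cox7a2l against Cox7a2 lost its call with PGC-1a1 under quantile scaling (0.12) and with PGC-1a4 under loess (0.12). With PGC-1a4 it also lost the call in 10 of 12 fits without 1 array (0.11 to 0.18 over the 12). By the mean of probe sets the values with PGC-1a1 and PGC-1a4 turned to -0.067 and -0.059. This pair gave 0.033 and 0.20 with PGC-1a1 on PBS and TNF arrays, and 0.56 and 0.39 for TNF with PGC-1a1 and vector. Cox6a2 against Cox6a1 gave -0.18 and -0.99 with PGC-1a1 against vector, and 0.13 and -0.42 against PGC-1a4, on PBS and TNF arrays, and 0.12 and 0.92 for TNF with PGC-1a1 and vector. Cox7a1 against Cox7a2 gave 4.13 and 5.35, then 3.72 and 4.68, then 2.34 and 1.12, in the same order.

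Replicate numbers are shared by the groups, but correlations of same-numbered arrays ran from -0.14 to 0.23 and were not over 0.1 in all 3 pairs of any comparison, so they were not taken to pair the arrays. With the number as a replicate block, Cox4i2 against Cox4i1 with PGC-1a4 kept -0.28 (adjusted p = 0.115) and Cox7a2l against Cox7a2 0.15 (adjusted p = 0.143), neither passing. The block also ended the calls of Cox7a1 with PGC-1a4 under TNF (0.46, adjusted p = 0.0522) and the Cox6a2 TNF response of PGC-1a1 against PGC-1a4 (-0.42, adjusted p = 0.0552).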
